A study of Capsicum annuum with 5 samples.

Results

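The root of pepper (Capsicum annuum, inbred line Zunla 1) carried a microRNA profile in which 10 of 57 families with at least 10 tags were at least 2-fold higher than in every shoot tissue, and 2 were at least 2-fold lower. The data were small RNA tags of 5 tissues with 1 library each, and the root library is 1 of these 5. All 314 lines for mature 5′ or 3′ sequences in the deposited miRNA annotation were taken, and each distinct sequence was counted once per family, a family being the number in the hairpin's name. This gave 245 distinct sequences in 64 families, of which 119 sequences in 42 families had tags in root. As no tissue had a second library, no difference has a replicate check, no test was made, and every interval covers counting error only (95%).

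Developing roots, developing stems and mature leaves came from soil-grown greenhouse plants in full bloom at 22 °C with 16 h of light. Flowers were taken fully open from mature plants. Fruits came from self-pollinated flowers. Their stage is stated in 2 ways, as mature green on the sample and as turning red 30 days after pollination in the series text. No temperature or light was given for flower and fruit. The extraction text speaks of root material for all tissues, so each library's tissue follows its sample label. A table of miRNA tags holds no marker gene with which a tissue label could be checked, and in whole organs fewer cells of a type and less RNA per cell cannot be told apart.

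In plants, microRNAs are cut by DICER-LIKE1 from hairpin transcripts as a duplex of a guide strand and a passenger strand, and the guide strand is loaded into an ARGONAUTE protein and pairs with messenger RNAs. The first base helps to decide which ARGONAUTE takes the strand: AGO1 prefers U. Guide strands of 22 nt are known for starting the production of secondary small RNAs from their targets, among them the transcripts of NLR disease resistance genes. In roots, microRNAs are known from Arabidopsis for roles in meristem patterning (miR166), auxin response (miR160, miR167) and nutrient supply (miR395, miR399).

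The sequences on which the root profile turned are shown 5′ to 3′ as deposited, with T for U and with the seed, bases 2 to 8, in capitals. The prefix for the species is left out of the names. The first set shows miR172, miR156 and miR166, in which the mix of sequences within the family differed between root and the shoot tissues.
miR172a-3p to miR172d-3p: aGAATCTTgatgatgctgcat
miR172h-3p: tGAATCTTgatgatgctgcat
miR172i-3p: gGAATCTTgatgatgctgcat
miR172e-3p and miR172f-3p: aGAATCTTgatgatgctgcag
miR172g-3p: aGAATCTTgatgctgctgcat
miR156a-5p to miR156c-5p: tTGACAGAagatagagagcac
miR156d-5p to miR156f-5p: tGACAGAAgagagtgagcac
miR156h-5p: tTGACAGAagagagtgagcat
miR166a-3p to miR166g-3p: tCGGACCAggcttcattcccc
miR166h-3p and miR166i-3p: tCGGACCAggcttcattcctc

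The second set shows the other sequences that led in root or were nearly missing there, because their families carry the counts given below.
miR5300-5p: tTCCCAGTccaggcattccaac
miR482a-3p: tTTCCAATtccacccattccta
miR171c-5p: tGTTGGAAcggctcaatcaaa
miR171e-5p: tGTTGGAAtggctcaatctga
miR477a-5p: aCTCTCCCtcaaaggcttctg
miR477a-3p: gAGGTCTTtcgagtgagagtgg
miR319c-5p: tGCTGCCGactcattcatcca
miR4414a-3p: cTCCAATGatgcaggagctga
miRC2a-5p and miRC2b-5p: tTTGCATAcaaacctgaatcg
miRC23-5p: tGACGTTAagatagaccgtgcg
miRC26-3p: tGATGGAGaaacaacagtagc
miR408-5p: aCAGGGACgaggcagcgcatg

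The listed tags, each sequence once, summed to 231560 in root against 318815, 542531, 678695 and 311417 in stem, leaf, flower and fruit. They are sums over the annotation and give no sequencing depth. Levels are given as tags and as tags per 1000000 listed tags of the library, and 1 root tag is worth 4.32 of these units. A fold is a ratio of 2 such shares. Since a large family can shift all other shares, each ratio was also computed in 3 further ways, with size factors from the median ratio over 31 families (median-of-ratios scaling), with totals that leave out miR166, and with sums over all hairpins, repeats included. Hairpin totals of 1 to 4 tags per library occurred in 1 case and totals of 5 to 8 in 39, so zeros are written as listed at 0, and folds against them are left out.

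Which shoot tissue lay furthest from root in the level of its median family depended on the scaling. Over families with tags in both tissues and with shares of listed tags, the median log2 ratio of root to the other tissue was 0.39 for stem (39 families), 0.72 for leaf (39), 1.83 for flower (38) and 1.10 for fruit (36). Median-of-ratios scaling lowers a log2 ratio of root by 1.25 against flower and by 0.41 against fruit, and raises it by 0.27 against stem and 0.19 against leaf (shifts of -0.27 and -0.19). The medians under that scaling were 0.66 for stem, 0.90 for leaf, 0.58 for flower and 0.69 for fruit, so flower, furthest by shares of listed tags, came nearest. Among families with tags in either tissue, root was at least 2-fold higher than stem in 15 of 48 (31.2%) and lower in 13 (27.1%). Against leaf the counts were 19 of 49 (38.8%) and 15 (30.6%). Against flower they were 27 of 48 (56.2%) and 12 (25%), and against fruit 25 of 47 (53.2%) and 11 (23.4%). Counts at least 2-fold from each median were taken over families with tags in both tissues only. Higher and lower, they came to 10 and 11 for stem, 9 and 14 for leaf, 15 and 14 for flower, and 11 and 12 for fruit. A median has as many families above as below it, so this near balance follows largely from the step itself.

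Against all 4 shoot tissues at once, 10 of 57 families (17.5%) were higher in root and 2 (3.51%) lower. A tested family with tags in a single tissue is called higher there by construction, which in root was miRC26. The 2 rules are unequal, as a call of lower needs tags in all 4 other tissues and a call of higher does not. Of the tested families listed at 0 in root, only miR394 had tags in all 4 shoot tissues and could be called lower. The counts of higher and lower families are therefore not directly comparable. The same count for each other tissue against its own 4 others gave 6 higher (10.5%) and 3 lower (5.26%) for stem, and 5 (8.77%) and 2 (3.51%) for leaf. It gave 6 (10.5%) and 6 (10.5%) for flower, and 3 (5.26%) and 5 (8.77%) for fruit. Root had its highest share among the tissues in 19 families, and the median family stood at 0.461 times its highest shoot tissue. Of the tested families 15 were listed at 0 in root, against 12, 11, 13 and 16 for stem, leaf, flower and fruit. The 19 families with their highest share in root have no matching count for the other tissues here.

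**Figure D1:**
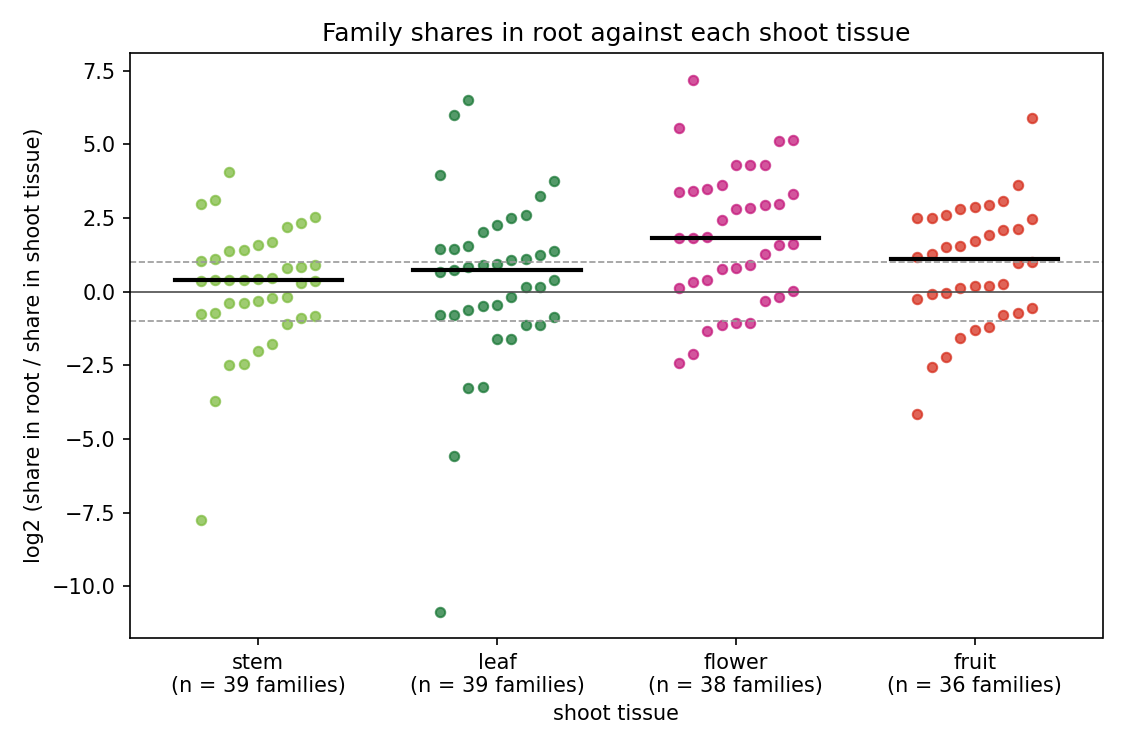
Each point is 1 family with tags in both tissues, the y axis is the log2 ratio of its share in root to its share in the shoot tissue named on the x axis, black bars are medians and broken lines mark 2-fold. The medians lie at 0.39 for stem, 0.72 for leaf, 1.83 for flower and 1.10 for fruit, and the lowest points for stem and leaf are miR408.

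The root library was led by few families. miR166, which targets class III HD-ZIP transcription factors, held 36.2% of the root tags. miR168, which targets AGO1, held 27.6%, and miR156, which targets SPL transcription factors, held 15.7%. The candidate miRC16 (4.27%), miR172 (2.98%), miR167 (2.76%), miR4376 (2.33%), miR5301 (1.69%), miR5300 (1.08%) and miR397 (0.951%) followed, and these 10 families made up 95.5% of the root tags. The root level of miR168 was 1.80 times that of leaf, the next tissue, but between 0.791 and 1.81 over the scalings, and miRC16 also changed sides.

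miR172, which targets AP2-like transcription factors and acts in phase change and flowering, was the most abundant family called higher. It had 6889 tags in root against 3525, 5906, 2795 and 1690 in stem, leaf, flower and fruit. Root was 2.69-fold above stem, the next tissue (2.58 to 2.80), and 1.98 to 3.03-fold above the highest shoot tissue over the scalings, so that it just missed the 2-fold mark with sums over hairpins. The sequences of the family differed in their lead. The miR172h-3p sequence had 3287 tags in root against 106, 22, 386 and 31 in stem, leaf, flower and fruit. Root was 25.0-fold above flower (22.5 to 27.8, and 10.5 to 25.0 over 3 scalings).

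miR172h-3p made up 47.7% of the root miR172 tags (46.5 to 48.9) against 3.01%, 0.373%, 13.8% and 1.83% in stem, leaf, flower and fruit. With sums over hairpins, which count the miR172a-3p form at each of its hairpins, the root share was 19.3%. The sequence differs from miR172a-3p by A1T (the base of miR172a-3p, its position from the 5′ end, and the base of the other sequence). Position 1 lies outside the seed, so both share the seed GAATCTT. miR172i-3p, which differs at the same position by A1G, had 172 tags in root and 9, 22, 6 and 5 in stem, leaf, flower and fruit, an 18.3-fold lead over leaf (lower bound 11.7). Both were far above every shoot tissue in root, while the form shared by miR172a to miR172d was not: it had 3394, 2916, 4803, 1179 and 1213 tags in root, stem, leaf, flower and fruit, a root lead of 1.60-fold.

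Other miR172 sequences went the opposite way. miR172e-3p and miR172f-3p share 1 sequence (T21G), which was listed at 0 in root and had 352, 40, 789 and 376 tags in stem, leaf, flower and fruit. miR172g-3p (A13C) was listed at 0 in root against 29, 181, 8 and 7, and miR172g-5p, from the opposite arm of that hairpin, was listed at 0 in root against 20, 780, 5 and 3. The hairpin of miR172h lies at chr10:188119126-188119211 on the plus strand, in the coordinates of the deposited annotation, whose genome build the sources used here do not give. It is shown with miR172h-3p in capitals as the 1 hairpin that lists this root sequence.
miR172h hairpin: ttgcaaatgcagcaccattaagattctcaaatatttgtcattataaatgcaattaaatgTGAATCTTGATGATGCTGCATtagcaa

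miR156 as a family was not called, with 15.7% of the root tags and 34.0% of the flower tags, but its 20 nt sequence led in root. This sequence, shared by miR156d, miR156e and miR156f, had 14193 tags in root against 5340, 747, 5610 and 873 in stem, leaf, flower and fruit. Root was 3.66-fold above stem (3.55 to 3.78, and 3.11 to 3.66 over the scalings). It starts 1 base later than the 21 nt sequences, so its seed reads GACAGAA where theirs reads TGACAGA. It made up 39.1% of the root miR156 tags (38.6 to 39.6) against 14.5%, 1.66%, 2.43% and 12.6% in stem, leaf, flower and fruit. The sequence of miR156a to miR156c had 16220, 16334, 39988, 218354 and 2338 tags in root, stem, leaf, flower and fruit, and miR156h-5p had 5832, 15126, 4087, 6634 and 3692.

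miR166 was in turn split between sequences that differ by C20T. The form of miR166h and miR166i had 47075 tags in root against 28054, 61636, 86498 and 84237 in stem, leaf, flower and fruit. It was 56.1% of the root miR166 tags (55.8 to 56.4), against 19.7%, 35.3%, 31.3% and 43.4% in stem, leaf, flower and fruit, and root was the tissue in which it outnumbered the form of miR166a to miR166g. That form had 36269, 111709, 94959, 185804 and 107159 tags in root, stem, leaf, flower and fruit. In level the miR166h and miR166i form was not highest in root, where it stood at 0.752 times fruit. The count of that sequence in root also depended on the hairpin, with 40439 on miR166h and 47075 on miR166i, and the larger was used. With sums over hairpins its share of root miR166 was 28.1%, and it no longer outnumbered the other form.

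**Figure D2:**
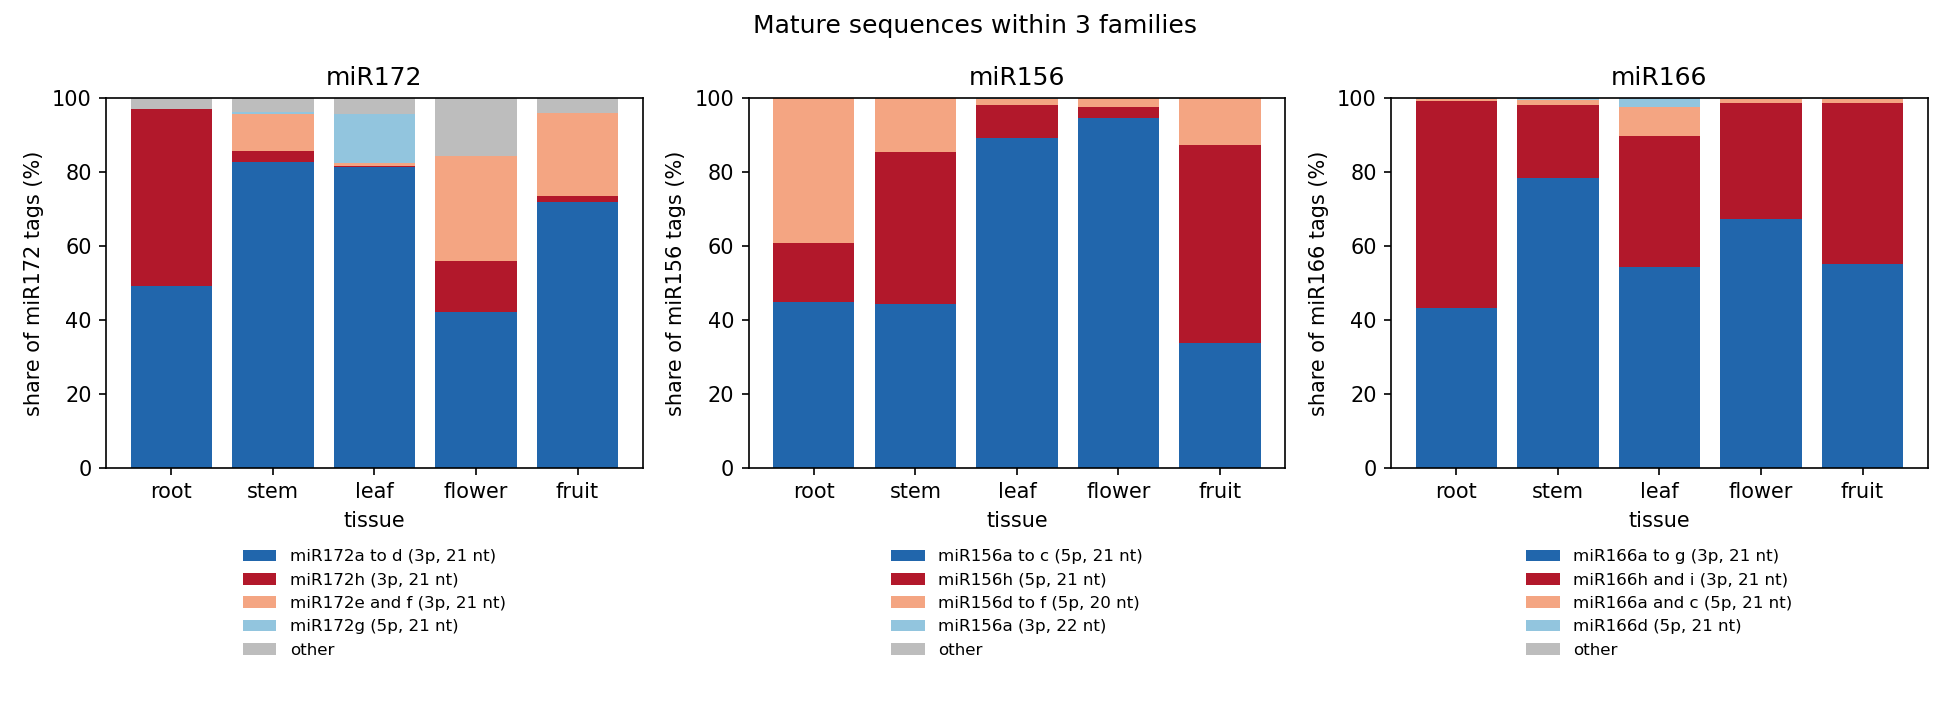
Stacked bars give the percent of a family's tags (y axis) that came from each sequence, for miR172, miR156 and miR166 in the 5 tissues. The root bars stand out by miR172h (47.7%), the 20 nt miR156 sequence (39.1%) and the miR166h and miR166i sequence (56.1%).

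Families known in tomato and other Solanaceae for targeting NLR disease resistance genes were the next group. Of the 4 families in the list, miR2118 was not analysed here, and of the 3 tested 1, miR5300, was called higher, where 17.5% of all tested families were. miR5300 had 2497 tags in root against 1158, 378, 929 and 436 in stem, leaf, flower and fruit, and root was 2.97-fold above stem (2.77 to 3.19, and 2.58 to 4.14 over the scalings). In root all of these tags were miR5300-5p. miR482a-3p had 1061 tags in root against 453, 115, 112 and 431 in stem, leaf, flower and fruit, 3.22-fold above stem (2.89 to 3.61, and 1.96 to 3.22 over the scalings). The related miR482b-3p had 469, 386, 145, 394 and 187 tags, 1.67-fold above stem. The passenger sequence miR482b-5p had 82 tags in root and 208, 1798, 0 and 23 in stem, leaf, flower and fruit, and the family with both arms was not called. The remaining tested family, miR1507, did not lead in root by shares of listed tags. It had 17 tags in root against 27, 7, 14 and 0 in stem, leaf, flower and fruit, 0.867 times the stem level. Its guide arm had 1 tag in root and 9 in stem. The 3 families together took 1.79% of the root tags, 0.712% of stem, 0.497% of leaf, 0.270% of flower and 0.353% of fruit.

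miR171, which targets GRAS transcription factors, had 1601 tags in root against 253, 399, 1309 and 254 in stem, leaf, flower and fruit. Root was 3.59-fold above flower (3.33 to 3.86), but 1.51-fold under median-of-ratios scaling, where the call was lost. miR171c-5p made up most of it, with 1285, 151, 42, 1055 and 152 tags in root, stem, leaf, flower and fruit. miR171e-5p had 162 in root against 23, 48, 11 and 2, a lead of 7.91-fold over leaf (5.70 to 11.2). Both are from the passenger arm, which held 91.9% of the root miR171 tags, and the guide arm sequences had 130, 74, 98, 210 and 98 tags in root, stem, leaf, flower and fruit, with a root level 1.78 times that of fruit, the next tissue.

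miR477, a less conserved family, had the largest ratio of the called families with shoot tags. With 194 root tags, 12 flower tags, 5 leaf tags and a 0 for both stem and fruit, it was 47.4-fold higher in root than in flower (26.5 to 93.3, and 19.9 to 70.1 over the scalings). The root tags were all from miR477a, with 104 of miR477a-5p and 90 of miR477a-3p, and the 12 flower tags were all from miR477b. Only the 5′ sequence of miR477a had shoot tags, 5 in leaf. Both arms of this hairpin, at chr8:124212178-124212273 on the plus strand, thus had tags in root at similar number. It is shown with miR477a-5p in capitals.
miR477a hairpin: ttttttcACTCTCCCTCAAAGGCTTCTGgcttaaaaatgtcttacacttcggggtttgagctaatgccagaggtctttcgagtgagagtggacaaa

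Among the smaller families, miR319, which targets TCP transcription factors, had 73 tags in root, 22 in stem, 6 in flower and 8 in fruit and was listed at 0 in leaf (4.57-fold above stem). The root tags were all from miR319c, with 61 of miR319c-5p against 13 in stem, and 12 of miR319c-3p against 1 in stem (16.5-fold, 2.44 to 706). Aligned without gaps, miR319c-5p shares 8 bases with its closest family member and 18 of 21 with miR4414b-5p, and miR319c-3p shares 10 with its closest family member and 16 with miR4414b-3p. The miR319 sequence of miR319a and miR319b was listed at 0 in root, with 8 tags in stem and 8 in fruit. The name miR319c is used here as the annotation gives it. miR4414a-3p itself had 68 root tags, 15 stem tags and 3 flower tags and was listed at 0 in leaf and fruit, 6.24-fold above stem (3.53 to 11.8), while its family was led by stem through miR4414b.

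Of the 29 candidate families, named miRC, 23 were tested and 4 were called higher, a share close to the 17.5% of all tested families. miRC2 had 80 tags in root, 14 in stem, 14 in leaf and 12 in flower and was listed at 0 in fruit (7.87-fold above stem). miRC23 had 59 in root, 23 in leaf, 14 in flower and 14 in fruit and was listed at 0 in stem (5.67-fold above fruit). miRC3 had 72, 31, 62, 19 and 16 in root, stem, leaf, flower and fruit (2.72-fold above leaf). miRC26 had 16 tags in root (9.15 to 26.0) and was listed at 0 in all shoot tissues. The numbered family miR2873 had 29, 8, 23, 0 and 9 tags (2.95-fold above leaf, and listed at 0 in flower). These low counts allow a wide range: for miR2873c, which held all of its root tags, the interval was 1.65 to 5.35.

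**Figure D3:**
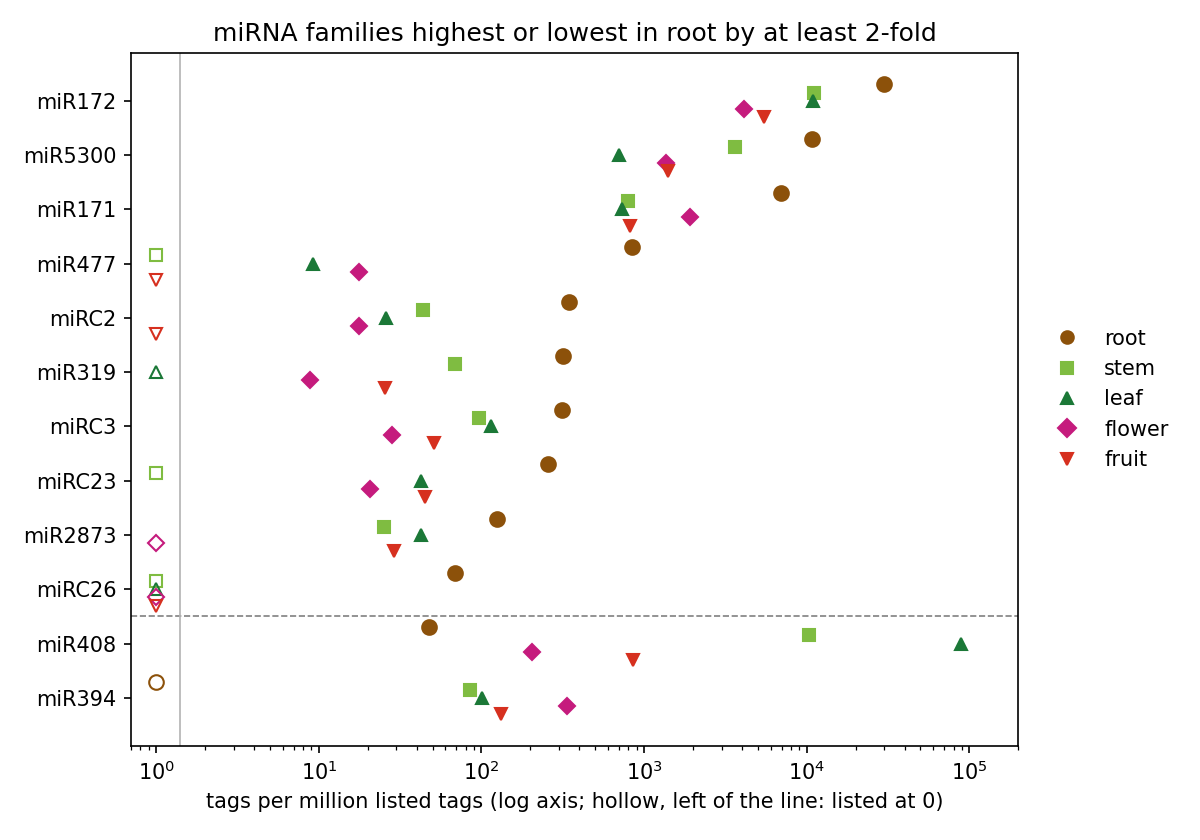
Tags per 1000000 listed tags (x axis, log scale) in the 5 tissues for the 10 families called higher in root, above the broken line, and the 2 called lower, below it, with 1 library per point and values listed at 0 drawn hollow at the left edge. Root is the rightmost point in each of the 10 higher families, from 29750 for miR172 to 69.1 for miRC26, and the leftmost for miR408 and miR394.

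The 2 families called lower were miR408 and miR394. miR408, which targets copper proteins such as plantacyanin, had 11 tags in root against 3277, 48090, 139 and 265 in stem, leaf, flower and fruit. Leaf was 1866-fold above root (1043 to 3738, and 1640 to 1866 over the scalings), and flower, the nearest tissue, was 4.31-fold above it (2.34 to 8.84). All 11 root tags were miR408-5p, the passenger sequence, and the guide sequence miR408-3p was listed at 0 in root against 2, 2, 4 and 3 tags in stem, leaf, flower and fruit. miR394, which targets an F-box gene of leaf and meristem development, was listed at 0 in root against 27, 55, 228 and 41 tags.

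The counts of the other lists stand beside 17.5% of all tested families called higher and 3.51% called lower. Of 9 families of phase transition and development, 3 were called higher (miR171, miR172 and miR319, the first and second not under every scaling) and 0 lower, with a median ratio of root to the highest shoot tissue of 0.558. With guide arms alone, only miR172 of this list was still called higher. The miR171 root tags were mostly passenger arm, and those of miR319 were all from miR319c. Of 5 families of auxin response and F-box genes, 0 were higher and 1 lower (miR394), with a median of 0.187: miR167, which targets auxin response factors, had 6393 tags in root against 522, 17042, 39075 and 40262 in stem, leaf, flower and fruit, and its level in fruit was 4.68 times that in root. Of 5 nutrient and copper families, 0 were higher and 1 lower (miR408), with a median of 0.105. miR827 was not analysed here. These took 1.27% of the root tags, less than in leaf (13.4%) and stem (3.43%) and more than in fruit (0.537%) and flower (0.219%). Of 3 Solanaceae families 0 were called, with a median of 0.249. miR4376, which is known from tomato for targeting a calcium ATPase, had 5404 tags in root against 29928, 27822, 456 and 1716 in stem, leaf, flower and fruit. Its level in stem was 4.02 times that in root, and root was 34.7-fold above flower (31.6 to 38.3). Of 4 less conserved families, miR477 was called, with a median of 0.827. The small RNA pathway list had 0 of 3 called and a median of 1.80, and held 28.3% of the root tags and 13.2% to 15.6% of the shoot tags. The median is the ratio of miR168, which was 0.791 under median-of-ratios scaling, and miR168 alone held 27.6% of the root tags. In the same list miR403, which targets AGO2, had 351 tags in root and 372 in stem, 13 in leaf and 7 in flower, and was listed at 0 in fruit.

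At the level of single sequences, 21 of 159 with at least 10 tags (13.2%) were at least 2-fold higher in root than in every shoot tissue, and 10 (6.29%) were lower. The 21 belonged to 14 families, and 4 of these, miR156, miR162, miR4414 and miR482, were not called as families. The member of the 21 nearest the threshold, miR162f-3p.1, had 381 tags in root against 240, 286, 443 and 255 in stem, leaf, flower and fruit, a ratio of 2.01 to the next tissue (1.71 to 2.36) that was 1.06 under another scaling. miR156h-3p, with 10 root tags, had an interval with a lower bound of 0.738. Of the 21, 11 were from the 5′ and 10 from the 3′ arm. Sequences starting with T made up 13 of the 21 (61.9%, against 49.1% of all tested), and sequences of 22 nt made up 5 (23.8%, against 13.8%). In all, 6 sequences had tags in root and were listed at 0 in every shoot tissue. miR477a-3p (90 tags), miRC26-3p (15), miR156d-3p (12) and miR172i-5p (7) were the larger of them. The former 3 passed the minimum of 10 tags through root alone, so their calls among the 21 were fixed. Sequences with tags in a single tissue numbered 6 for root against 6, 9, 23 and 4 for stem, leaf, flower and fruit. A further 86 sequences were listed at 0 in root and had tags in any shoot tissue, a wider condition that does not mirror the 6. Sequences listed at 0 numbered 126 for root against 119, 102, 98 and 127 for stem, leaf, flower and fruit.

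Length and first base of the tags, which the rule for calls does not use, were compared next. They come from the same counts, so sequences already named for their root lead weigh on them. Tags of 20 nt made up 6.20% of the root library (6.10 to 6.30) against 1.85%, 0.418%, 0.935% and 0.323% in stem, leaf, flower and fruit. The miR156 sequence shown above held 98.9% of the root tags of this length. Without miR156 the root share was 0.0819% against 0.195%, 0.305%, 0.165% and 0.0440% in stem, leaf, flower and fruit, so root no longer led. Tags of 22 nt made up 4.39% in root (4.31 to 4.48) against 10.2%, 5.32%, 0.385% and 0.945% in stem, leaf, flower and fruit. The root share was 1.84% with sums over hairpins and 6.89% without miR166. The order of root, stem and leaf rested on miR4376. Without that family root had the highest share of 22 nt tags, with 2.11% against 0.924%, 0.214%, 0.318% and 0.397% in stem, leaf, flower and fruit, most of it miR5300 and miR482. A first T was found in 90.2% of the root tags against 81.2%, 74.6%, 96.6% and 93.6% in stem, leaf, flower and fruit, so root lay between the vegetative and the reproductive shoot tissues. A first A was found in 8.45% of the root tags and in 15.8% and 17.7% of stem and leaf tags.

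**Figure D4:**
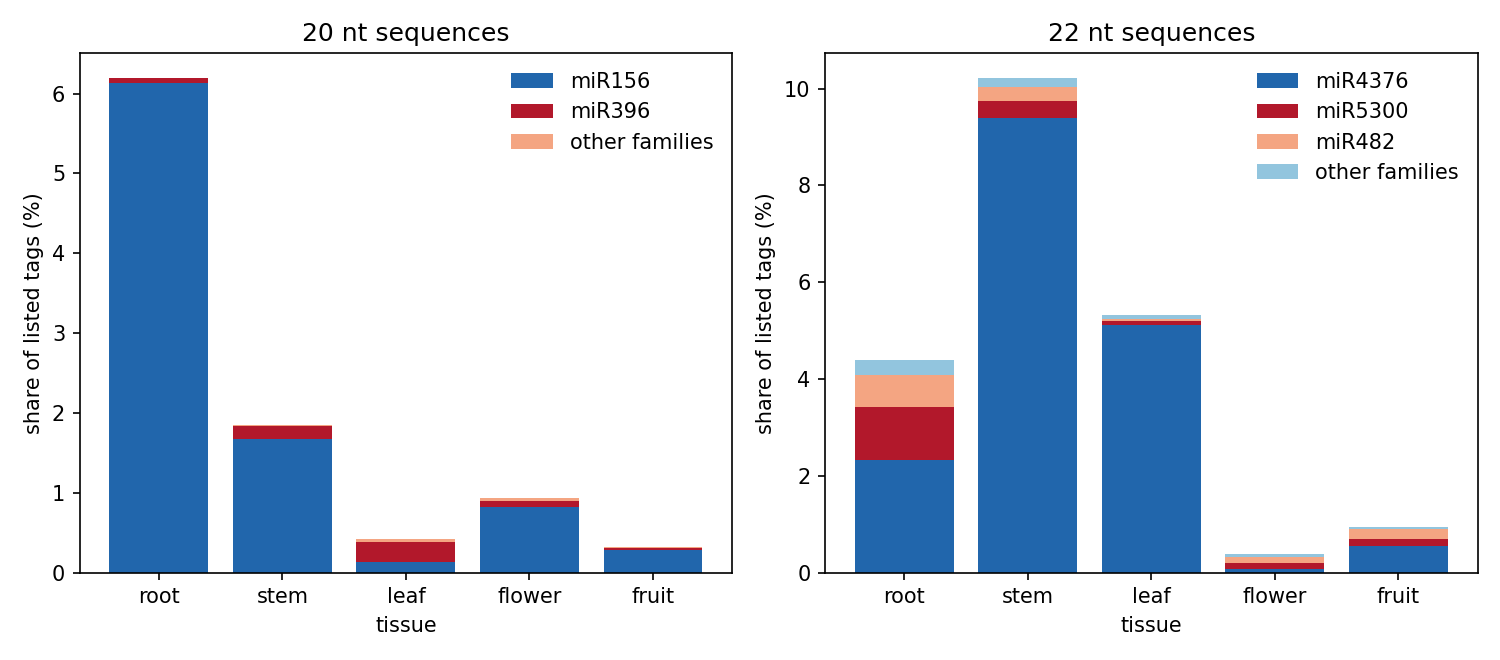
Bars show the percent of listed tags (y axis, from 0) that were 20 nt and 22 nt long in each tissue, split by family. Root has the tallest 20 nt bar (6.20%), nearly all miR156, and in its 22 nt bar (4.39%) miR5300 and miR482 take a larger part than in stem and leaf, where miR4376 takes most.

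In 25 families with a guide arm assigned from textbook knowledge (for miR5300 after its deposited hairpin was seen), passenger arm tags made up 2.17% in root (2.11 to 2.23) against 5.28%, 22.8%, 1.76% and 1.84% in stem, leaf, flower and fruit. Leaving out miR408 gave 2.16% for root, 4.05% for stem, 12.7% for leaf, 1.74% for flower and 1.76% for fruit. The root share was closer to those of flower and fruit than to those of stem and leaf. In root, 8 of 23 families with tags had most of them on the passenger arm, namely miR1507, miR160, miR171, miR319, miR393, miR398, miR399 and miR408. This was not particular to root. The same families did so in stem (lowest for miR319, 59.1%) and in flower, where miR169 (52.3%) and miR403 (100%) joined them. In leaf miR319 had no tags, and miR396, miR403 and miR482 joined the others. In fruit miR1507 had no tags and miR319 had 0% on the passenger arm. miR166a-5p and miR166c-5p, which share 1 passenger sequence, had 268 tags in root against 1776, 13964, 3053 and 2427 in stem, leaf, flower and fruit. With guide arms alone, 3 of 24 families were at least 2-fold higher in root than in every shoot tissue: miR172 (2.77-fold), miR5300 (2.97-fold) and miR482 (2.41-fold).

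The overlap of 2 libraries, the sum over families of the smaller of both shares, was 73.3% for root and stem, 69.2% for root and leaf, 73.7% for root and flower and 62.2% for root and fruit. Over single sequences it was 59.2%, 62.8%, 58.8% and 61.9% in the same order. By this overlap, which tissue came closest to root thus depended on the level. Without miR166 the family values were 65.7%, 55.5%, 60.9% and 61.9%. By Spearman rank correlation stem was closest to root both over families (0.749) and over single sequences (0.682). All of these values share the root library.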

How the data were processed

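RNA of 5 tissues was isolated with Trizol and sequenced on a HiSeq2000 after library construction with Illumina's small RNA kit, per the labels' protocols. The authors deposited a GFF annotation (version 3) that names a plant mode of MIREAP, per the file headers, and that holds for every mature sequence a whole-number tag count in each library. Aligner, trimming, genome build, the handling of multiply matching tags and the size of the libraries are unknown from the sources used here. The genomic context of hairpins was not analysed here.

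Counts were read with Python 3.11.15 and pandas 2.3.3. Of the 245 distinct sequences 36 stood on several lines, and for 18 the counts differed between hairpins, so the largest count was used once per family. Repeated precursor lines (176 lines, 165 hairpins) were kept once. Arms were taken from the place in the hairpin, which differed from the typed arm on 6 lines. Counts were divided by the listed total of the library. A family or sequence needed at least 10 tags over the libraries, and 57 of 64 families had them (5 were at 0 everywhere). It was called higher where its share in root was at least 2 times that in each shoot tissue, zeros in shoot tissues allowed. It was called lower where every shoot tissue had tags and a share at least 2 times that in root. Intervals are 95% Clopper-Pearson for shares, exact Poisson for tags and an exact binomial split of 2 counts for folds (scipy 1.17.1). They treat tags as independent molecules, which reads without molecular identifiers are not.

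Families named are those called, the 10 with the largest root share, and those of the lists (guide arms and targets from textbook knowledge), with the leading sequences of each. Members and lists were chosen with earlier results of these data known. The split of miR172, miR156 and miR166 by sequence, miR482a, miR482b, miR4414a and the likeness of miR319c to miR4414b were chosen after their values were seen, and the guide arm of miR5300 was set to the 5′ arm after the deposited hairpin was seen.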

Additional observations from a re-analysis of the deposited data

How the results depend on the processing

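No paired analysis was possible because each tissue had 1 library. For the same reason no library could be left out. The count of 10 families higher in root was 10 under median-of-ratios scaling (9 of them shared, with miR171 lost and miRC12 gained), 11 with sums over hairpins (9 shared, with miR172 lost and miR162 and miRC12 gained) and 8 with a minimum of 100 tags (43 families). It was 5 at a 4-fold threshold (miR319, miR477, miRC2, miRC23 and miRC26) and 3 of 24 with guide arms only. The call of miRC26, which had tags in root only, was fixed at any threshold. The count of 2 lower families, miR394 and miR408, was 2 under every alternative run. With guide arms only, the call of miR408 rested on 0 root tags against 2, 2, 4 and 3 in stem, leaf, flower and fruit. These counts are too few to show a lower level of its guide arm in root. Of 35 named family ratios, 32 stayed on the same side of 1 under the scalings, and those of miR168, miR1507 and miRC16 did not. Their size was less stable. Under median-of-ratios scaling 23 of 35 ratios moved outside their counting interval. Without miR166 in the totals 16 of 34 did, and with sums over hairpins 16 of 35. The root share of 22 nt tags (4.39%) was 1.84% with sums over hairpins, 6.89% without miR166, 1.96% with guide arms only and 2.11% without miR4376, the last chosen after seeing the data. The following alternatives were also added after seeing the data. With sums over hairpins, which count a sequence at each hairpin that lists it, miR172h-3p was 19.3% of root miR172 instead of 47.7%, the 20 nt sequence 43.9% of root miR156 instead of 39.1%, and the miR166h and miR166i sequence 28.1% of root miR166 instead of 56.1%. With the smallest count of a repeated sequence the last share was 57.2%. The folds of miR2873, miRC23, miRC3, miR319 and miRC2 rest on 29, 59, 72, 73 and 80 root tags, and the call of miRC26 on 16.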
